A study of Mus musculus with 6 samples.

Results

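The expression of 9 genes of retinoid handling was described in 6 RNA-seq libraries from acinar cells of adult mice. Acinar cells make and release the digestive enzymes of the pancreas. The genes were Rdh10, Rdh11, Rdh13, Rdh14, Dhrs3, Rbp4, Rara, Rarg and Rxra, out of 55414 gene identifiers in each count table, and all 9 passed the filter on low counts that left 13115 genes for testing. They were chosen by the knockout-to-control difference of Rdh11 in these same counts, together with related dehydrogenases, a binding protein and retinoic acid receptors. All are protein-coding. Rdh11 and Rdh14 lie on chromosome 12, Rdh10 on 1, Rdh13 on 7, Dhrs3 on 4, Rbp4 on 19, Rara on 11, Rarg on 15 and Rxra on 2. Differences between the groups in these 9 genes are therefore given as a description, with no p-value printed. Which of them were called is stated beside the calls over all tested genes. Neither the differences nor these calls support anything further. The controls were 3 adult Pdx1Cre;Trip12+/+ preparations and the knockouts 3 adult Pdx1Cre;Trip12fl/fl preparations, all untreated. Both groups carry Cre recombinase under the Pdx1 promoter, which is active in the precursors of acinar, duct and islet cells alike. Trip12 encodes a ubiquitin ligase. The labels call each preparation a biological replicate and do not say how many animals stand behind it.

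Retinol, vitamin A, is turned into retinoic acid in 2 oxidation steps. The first, from retinol to retinal, is reversible and is run by short-chain dehydrogenases: RDH10 is the main enzyme in the oxidising direction, while DHRS3 and RDH11 mainly reduce retinal back to retinol. The second step, from retinal to retinoic acid, is run by aldehyde dehydrogenases of the ALDH1A group and is not reversed. Retinoic acid binds the receptors RARα, RARβ and RARγ, which sit on DNA as pairs with an RXR receptor and control transcription, and CYP26 enzymes break it down. In the pancreas, retinoic acid is known for its part in organ formation, and stellate cells, a stromal cell type, store retinyl esters.

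Each library held between 31019500 and 34041901 gene counts. Values are counts scaled to a common library size (CPM), adjusted by TMM factors, which correct for differences in RNA composition. Values by library are given in the order of the replicate numbers. Trip12 itself lay at 29.0, 22.3 and 26.4 CPM across the controls against 14.4, 14.7 and 13.0 CPM across the knockouts, a log2 difference of -0.89 (SE 0.14, adjusted p 0.0256 with edgeR's quasi-likelihood test, adjusted by Benjamini and Hochberg). The groups did not overlap. Whole-gene counts do not show which exons were lost. The Trip12 call was lost with library totals, with sex as a covariate and in 5 of the 6 fits that left out 1 library, all but the one without control replicate 1 (adjusted p 0.0676 to 0.140 in those 5 edgeR fits). The log2 difference was -0.49 with library totals, -1.05 with sex as a covariate and -0.98 to -0.82 without 1 library. TMM factors ran from 0.785 to 1.017 in control and from 1.119 to 1.193 in knockout. Acinar markers dominated every library. The summed CPM of 11 of them ran from 396960 to 530260 in control and from 355090 to 357150 in knockout. All 11 islet, 9 ductal, 13 stellate, fibroblast and endothelial, and 12 leukocyte markers also had counts in at least 1 library. Among 7 adipocyte markers, 3 were at 0 in every library and 6 at 3 counts or fewer. Xist and Y-linked counts marked control replicates 2 and 3 as female and the other 4 libraries as male. In such bulk samples, fewer cells of a type and less RNA per cell cannot be told apart. The p-values measure the spread between these preparations, which may in part be technical.

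The Rdh11 promoter windows are printed because Rdh11 had the widest difference of the 9. RefSeq gives it 2 start sites on the minus strand of chromosome 12. The 250 bases upstream of each are printed 5′ to 3′ from build GRCm38.p6, at chr12:79190962-79191211 for the downstream start and chr12:79191856-79192105 for the upstream start. Capitals mark CACGTG, the E-box read by basic helix-loop-helix factors, and AGGTCA, the half-site read by retinoid and related nuclear receptors, on either strand.
Rdh11 downstream start: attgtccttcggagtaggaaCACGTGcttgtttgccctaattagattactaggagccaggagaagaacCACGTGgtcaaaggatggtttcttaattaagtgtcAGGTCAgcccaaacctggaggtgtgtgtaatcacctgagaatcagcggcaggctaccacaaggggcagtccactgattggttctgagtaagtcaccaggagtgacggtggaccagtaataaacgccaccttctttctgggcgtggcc
Rdh11 upstream start: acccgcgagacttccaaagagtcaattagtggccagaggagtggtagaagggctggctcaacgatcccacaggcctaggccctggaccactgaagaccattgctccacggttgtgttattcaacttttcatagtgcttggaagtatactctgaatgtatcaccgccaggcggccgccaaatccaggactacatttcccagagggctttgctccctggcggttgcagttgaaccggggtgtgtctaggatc

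The window of the downstream start holds CACGTG at -230 and -182 and AGGTCA at -147, counted from the start site to the first base of each match. The window of the upstream start holds neither. CACGTG occurs in 6.02% of the 32851 promoter windows of the same length in the RefSeq table, and at least 2 copies occur in 0.43%. AGGTCA, with TGACCT on the other strand, occurs in 14.02%. RefSeq windows were found for 7 of the 9 members, 16 windows in all. Rdh10 and Rdh13 had none in the table. Among the others, Rara had 1 CACGTG in 1 of its windows, at -10. Rarg had 1 AGGTCA at -225 and Rxra 2, at -87 and -48. Direct repeats of the receptor half-site with spacers of 1, 2 or 5 bases (DR1, DR2 and DR5), searched with AGGTCA as half-site and also with the variants AGTTCA or GGGTCA or GGTTCA, were in none of the 16 windows, and were in 0.16%, 0.17% and 0.09% of all windows. These matches describe letters only, and gene counts do not show which start site was used.

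Rdh11 (ENSMUSG00000066441) encodes a membrane-bound reductase of the endoplasmic reticulum that uses NADPH to reduce retinal and other aldehydes. The controls held 143, 164 and 132 counts, and the knockouts held 922, 920 and 826. In normalised terms this was 4.50, 6.74 and 4.80 CPM across the controls against 24.7, 26.3 and 22.2 CPM across the knockouts. All 3 knockout libraries lay far above the highest control, and the groups did not overlap. The control mean was 5.35 CPM ± 1.21 (SD, n = 3) and the knockout mean 24.4 CPM ± 2.07, a fitted difference of 2.19 on the log2 scale (SE 0.18), or 4.57-fold. Between libraries of the same number, the ratio of knockout to control was 5.49, 3.90 and 4.62. The only male control, replicate 1, had the lowest CPM of the controls, at 4.50 against 22.2 to 26.3 in the 3 male knockouts, and the log2 difference with sex as a covariate was 2.44. Of the 9 members, edgeR called 1, Rdh11, at an adjusted p-value under 0.05, against 0.945% of all tested genes. With the replicate number as a block it again called 1, Rdh11, against 5.99% of all tested genes. Because the members were chosen on this difference, nothing is read from these counts. Over the 10 other settings and the 6 fits without 1 library, the log2 difference ran from 2.06 to 2.62.

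**Figure D1:**
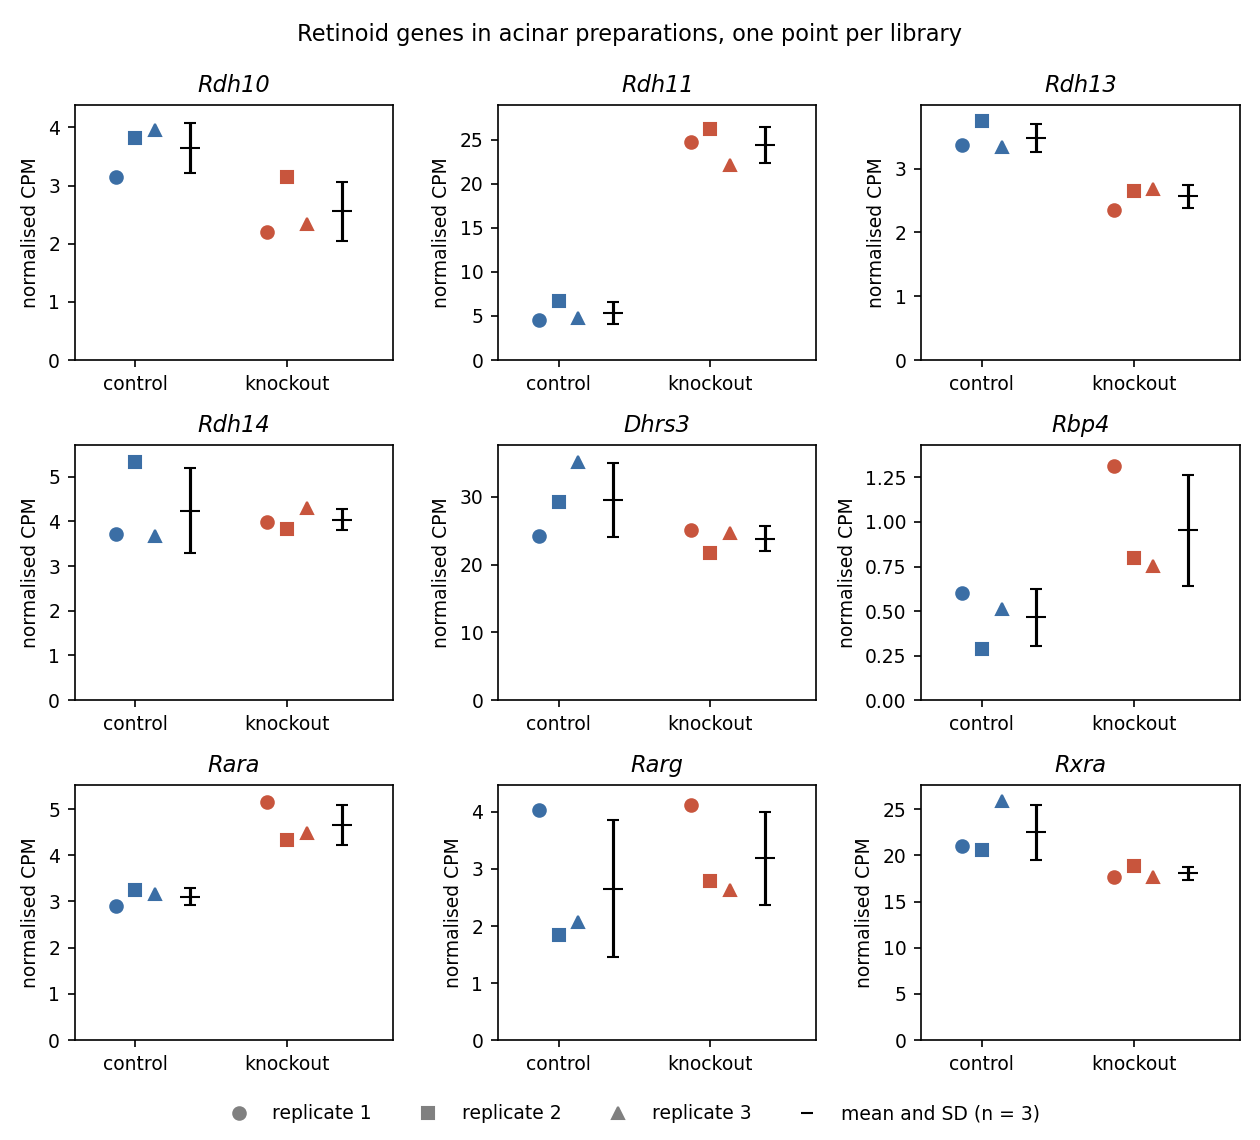
Normalised CPM of the 9 genes, 1 point per library, with blue for control, red for knockout, the marker shape for the replicate number, and a bar for the mean and SD of 3 libraries. Rdh11 sits at 4.50 to 6.74 CPM in control and 22.2 to 26.3 CPM in knockout, while Rdh14, Dhrs3 and Rarg overlap between the groups.

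The level of Rdh11 was next set against the other 4 dehydrogenases within each library, as counts per kilobase of exons, which needs no scaling between libraries. Rdh11 made up 9.76%, 11.4% and 7.999% of the summed level of the 5 genes across the controls, and 37.01%, 40.5% and 34.2% across the knockouts. Dhrs3, the largest contributor, went from 63.3% ± 5.44 (SD, n = 3) to 43.04% ± 3.04 of that sum. The Rdh11 share was thus higher in every knockout than in any control. Since the members were chosen on the Rdh11 difference, these shares and ratios restate it without scaling and are no separate support. Shares of a sum are tied to each other, and with Rdh11 left out of the sum Dhrs3 made up 68.6%, 66.3% and 75.3% across the controls against 70.6%, 66.5% and 68.6% across the knockouts, which overlapped. Against Rdh14 alone, Rdh11 lay at 0.519 to 0.560 of its level per kilobase in control and at 2.21 to 2.94 times its level in knockout. Against Rxra, the range was 0.293 to 0.517 in control and 1.98 to 2.22 in knockout. Of the 8 ratios of Rdh11 to another member, the groups overlapped only for the ratio to Rbp4, at 2.93 to 9.11 in control and 7.31 to 12.8 in knockout.

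Reads from a close copy could add to a gene's counts. In the GENCODE M21 transcripts, no other gene matched any of the 9 members at 95% identity or more over at least 100 bases. The transcript most like Rdh11 was Gm7880, a processed pseudogene on chromosome 6 with 85.5% identity over 888 bases, and it was listed at 0 in all 6 libraries. Rdh12, a photoreceptor enzyme of the same family, matched Rdh11 with 70.9% identity over 869 bases. It had at most 13 counts in any library and was not tested.

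Genes near Rdh11 were examined in the same annotation (GRCm38), a set chosen after values were seen. Within 1 Mb of the Rdh11 start, 15 other genes were tested, and edgeR's quasi-likelihood test called none of them, against 0.945% of all tested genes. At an unadjusted p under 0.05 there were 5 of the 15, against 16.7% of all tested genes, and DESeq2 called 0, against 4.52%. Their log2 differences ran from -1.68 (Arg2, SE 0.72) to 0.61 (Zfyve26). Vti1b, the nearest tested gene, which encodes a vesicle fusion protein, averaged 23.1 CPM in control and 22.3 CPM in knockout (log2 difference -0.05, SE 0.16). Zfyve26 averaged 5.08 CPM in control and 7.78 CPM in knockout (SE 0.19, adjusted p 0.163 in the edgeR test). With the replicate block 1 of the 15 was called, against 5.99% of all tested genes. It was Gphn (adjusted p 0.0290, edgeR with the block), which encodes the receptor-anchoring protein gephyrin and was lower in knockout.

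**Figure D2:**
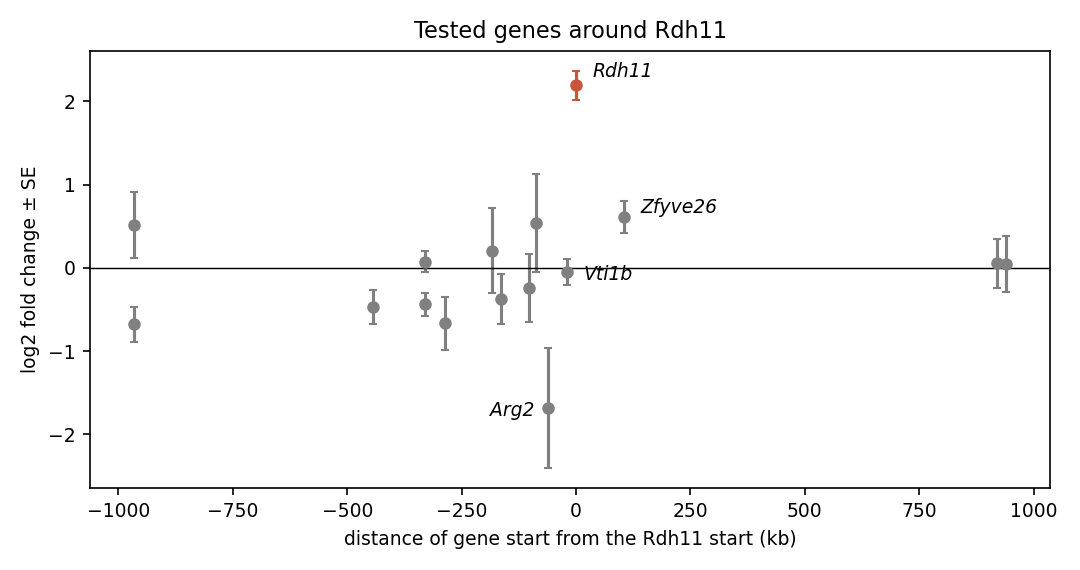
Log2 difference between knockout and control, with its standard error, for the 16 tested genes whose start lies within 1 Mb of the Rdh11 start, against distance in kb. Rdh11 stands at 2.19 and the other 15 lie between -1.68 and 0.61.

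The genes most like Rdh11 in pattern were sought among 10369 tested protein-coding genes of at least 1 CPM on average. The measure was the root mean square difference of centred log2 CPM over the 6 libraries. The 5 closest were Eme2 (0.251), Rgs11 (0.267), Ankrd24 (0.272), Dhdh (0.292) and Naa38 (0.304). The Rdh11 profile holds the difference on which the members were chosen. Genes found this way share that difference by construction and support nothing further. Dhdh and Naa38 averaged 0.477 and 0.524 CPM in control, and passed the minimum only through the knockouts, at 2.66 and 1.86 CPM.

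Rdh10 (ENSMUSG00000025921), the main retinol-oxidising enzyme, had 3.15, 3.82 and 3.96 CPM across the controls against 2.20, 3.14 and 2.33 CPM across the knockouts. The groups came within rounding of each other, at 3.15 CPM in the lowest control and 3.14 CPM in the highest knockout. Its log2 difference was -0.51 (SE 0.23). Rdh13 (ENSMUSG00000008435), a mitochondrial member of the family, had 3.37, 3.74 and 3.34 CPM across the controls against 2.36, 2.65 and 2.68 CPM across the knockouts. Its groups did not overlap and both were narrow, with a log2 difference of -0.44 (SE 0.20). Rdh14 (ENSMUSG00000020621), another retinol dehydrogenase of the same branch as RDH11, had 3.72, 5.34 and 3.67 CPM across the controls against 3.99, 3.83 and 4.29 CPM across the knockouts. Its groups overlapped, with only control replicate 2 standing apart, and the log2 difference was -0.07 (SE 0.20).

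Dhrs3 (ENSMUSG00000066026), a retinal reductase whose gene is itself induced by retinoic acid in many cell types, had 24.2, 29.3 and 35.2 CPM in control replicates 1 to 3. The knockouts had 25.1, 21.7 and 24.7 CPM. Control replicate 1, the only male control, lay among the knockouts. The log2 difference was -0.31 (SE 0.16), and -0.02 with sex as a covariate. The mean CPM of Rdh10, Rdh13, Rdh14 and Dhrs3 was lower in knockout with TMM factors, a direction that turned for Rdh14 and Dhrs3 with library totals and for Rdh14 also with sex as a covariate (0.12) and without control replicate 2 (0.13). When TMM factors were replaced by library totals, which raised the median log2 difference of all genes from 0.0224 to 0.43, the log2 differences of Rdh10, Rdh13, Rdh14 and Dhrs3 were -0.09, -0.03, 0.36 and 0.12. Rdh11 stood at 2.62 under that scaling.

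Rbp4 (ENSMUSG00000024990) encodes the plasma carrier of retinol, made mainly by liver and fat. It was the lowest of the 9, with 19, 7 and 14 counts across the controls against 49, 28 and 28 across the knockouts. That was 0.598, 0.288 and 0.509 CPM across the controls against 1.31, 0.799 and 0.751 CPM across the knockouts. The groups did not overlap, with a log2 difference of 1.02 (SE 0.48). Knockout replicate 1, the highest in Rbp4, also had the highest summed islet markers, 942 CPM, and the highest adipocyte markers, 17.2 CPM. That adipocyte sum was almost all Fabp4, the only marker of its list above 3 counts in any library. Stellate, fibroblast and endothelial markers were likewise highest in knockout replicate 1, at 180 CPM. They summed to 36.3 to 167 CPM in control and to 46.0 to 180 CPM in knockout. Islet markers summed to 366 to 480 CPM in control and to 252 to 942 CPM in knockout. Adipocyte markers summed to 3.45 to 8.85 CPM in control and to 4.57 to 17.2 CPM in knockout, with Adipoq, Lep and Retn at 0. The part of any of these markers in the Rbp4 difference was not tested.

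Of the receptors, Rara (ENSMUSG00000037992), which encodes RARα, had 2.90, 3.25 and 3.16 CPM across the controls against 5.15, 4.34 and 4.48 CPM across the knockouts. The groups did not overlap, and the controls were almost level. The mean was 3.10 CPM ± 0.181 (SD, n = 3) and 4.65 CPM ± 0.431, a log2 difference of 0.59 (SE 0.18), and 1.01 with library totals. Rarg (ENSMUSG00000001288), which encodes RARγ, had 4.03, 1.85 and 2.07 CPM across the controls against 4.13, 2.80 and 2.63 CPM across the knockouts. Replicate 1 was the highest of each group, so the groups overlapped, and the log2 difference of 0.26 (SE 0.34) turned to -0.34 with sex as a covariate. Replicate 1 also had the highest summed stellate, fibroblast and endothelial markers of each group, 167 CPM in control and 180 CPM in knockout, and the highest leukocyte markers, 165 and 115 CPM. Their part in Rarg was not tested. Rxra (ENSMUSG00000015846), which encodes RXRα, had 20.98, 20.6 and 25.9 CPM across the controls against 17.6, 18.9 and 17.7 CPM across the knockouts. These groups did not overlap, with a log2 difference of -0.32 (SE 0.13) that became 0.10 with library totals.

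Counted together, 6 of the 9 members had groups that did not overlap in CPM, namely Rdh10, Rdh11, Rdh13, Rbp4, Rara and Rxra, against 22.9% of all tested genes. Of these 6, Rdh11, Rbp4 and Rara were higher in every knockout library and Rdh10, Rdh13 and Rxra lower. The median log2 difference was -0.07 over the 9 members and 0.02 over all 13115 tested genes. Since the list was drawn up with this contrast known, the share is not a result about the members.

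The levels were ordered per kilobase of exons, which allows genes of different length to be compared. In control, Dhrs3 was the highest at 10.1 CPM per kilobase ± 1.88 (SD, n = 3), followed by Rxra at 4.12 ± 0.541, Rdh14 at 2.87 ± 0.642 and Rdh11 at 1.55 ± 0.351. Below these came Rdh10 at 0.876 ± 0.104, Rara at 0.711 ± 0.0416, Rarg at 0.622 ± 0.282, Rdh13 at 0.528 ± 0.0334 and Rbp4 at 0.346 ± 0.119. Neighbours in this order did not overlap, except Rara with Rarg and Rarg with Rdh13.

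In knockout, Dhrs3 at 8.15 CPM per kilobase ± 0.637 (SD, n = 3) was followed by Rdh11 at 7.06 ± 0.601, and these levels overlapped. Rdh11 had thus moved from the fourth place in control to the second, and from the 60.8th to the 90.8th percentile of the 13095 tested genes ranked by level per kilobase. Rxra at 3.31 ± 0.131, Rdh14 at 2.73 ± 0.159 and Rara at 1.07 ± 0.0988 came next, each apart from its neighbours. Rarg at 0.747 ± 0.193, Rbp4 at 0.711 ± 0.232 and Rdh10 at 0.615 ± 0.122 overlapped from one to the next, and Rdh13 was the lowest at 0.389 ± 0.0272, with no library as high as the lowest of Rdh10. Dhrs3 kept the first place in both groups, at percentile 93.4 in control and 92.2 in knockout.

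**Figure D3:**
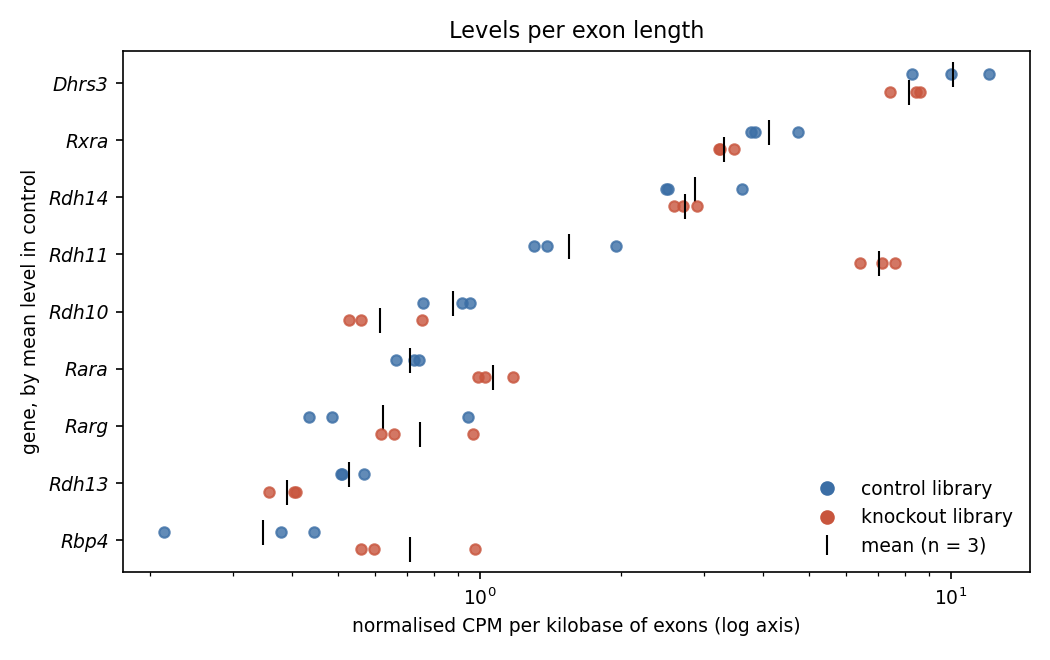
Level of the 9 genes in CPM per kilobase of exons on a log axis, ordered by the control mean, with blue points for control libraries, red points for knockout libraries and a black line for the mean of 3 libraries. Dhrs3 is the highest in both groups, and Rdh11 goes from 1.55 ± 0.351 in control to 7.06 ± 0.601 in knockout.

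Other genes of the pathway were then taken from lists of 103 symbols, of which 102 had an identifier, 23 were at 3 counts or fewer in every library and 62 were tested. By the same edgeR test, 2 fell, Adh1 and Ttr, and 0 rose, against 0.945% of all tested genes. At an unadjusted p under 0.05 there were 13 of the 62, against 16.7% of all tested genes, and DESeq2 called 5, all lower, against 4.52%. The fit with the block called 7 genes: 1 rose, Cyp26b1, and 6 fell, Adh1, Ttr, Dhrs4, Nr1h3, Nr1h4 and Tgm2, against 5.99% of all tested genes. The median log2 difference was -0.04 over the 62 genes and 0.02 over all tested genes, and 27 were positive and 35 negative.

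In the first oxidation step, 6 of 18 other enzymes were tested and 1 fell, Adh1, which encodes a cytosolic alcohol dehydrogenase that oxidises retinol. Adh1 had 14.3, 24.8 and 18.4 CPM across the controls against 8.31, 8.68 and 8.18 CPM across the knockouts. The knockouts were nearly level and all below the lowest control, which was the male one. The log2 difference was -1.19 (SE 0.19, adjusted p 0.0300, and 0.00210 with the replicate block, by edgeR). The call held without control replicate 1 (adjusted p 0.00596 by edgeR) and was lost without any one of the other 5 libraries (0.0945 to 0.154) and with sex as a covariate (0.246). Dhrs4, which encodes a peroxisomal reductase of retinal and other carbonyls, had 7.56, 12.1 and 5.56 CPM across the controls against 3.75, 4.03 and 4.02 CPM across the knockouts. Its groups did not overlap, and edgeR called it with the block but not in the main fit. By edgeR the log2 difference was -1.09 (SE 0.26, adjusted p 0.103, and 0.0180 with the block). It was also called by DESeq2 (adjusted p 0.0126) and by edgeR without the low-count filter (adjusted p 9.12e-06). With sex as a covariate the Dhrs4 difference was -0.94 (adjusted p 0.421 by edgeR).

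In the second step, from retinal to retinoic acid, 4 of 7 genes were tested and edgeR called 0, with 1 at an unadjusted p under 0.05 and 0 by DESeq2. Aldh1a1, the highest of them, had a mean of 27.6 CPM ± 6.65 (SD, n = 3) across controls and 18.8 CPM ± 2.74 in knockout, a log2 difference of -0.55 (SE 0.19). Aldh1a7 averaged 18.7 CPM ± 5.11 and 14.4 CPM ± 1.67. Aldh1a1 and Aldh1a7 are close copies, and their transcripts were not compared here. Reads that matched several places were counted outside genes, so either level may be understated. For breakdown, only Cyp26b1 of 3 CYP26 genes was tested. It had 37, 3 and 24 counts across the controls against 109, 36 and 108 across the knockouts, so the groups overlapped while each knockout lay above the control of the same number. Summed stellate, fibroblast and endothelial markers, at 167, 36.3 and 52.0 CPM across the controls against 180, 46.0 and 125 CPM across the knockouts, were likewise lowest in replicate 2 of each group, and their part in Cyp26b1 was not tested. Its log2 difference was 1.64 (SE 0.72, adjusted p 0.312 by edgeR, and 0.0168 with the block), and 0.97 with sex as a covariate (adjusted p 0.769 by edgeR).

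Of genes for retinyl ester storage, release and carotene cleavage, 3 of 7 were tested and edgeR called 0, with 0 at an unadjusted p under 0.05 and 0 by DESeq2. Dgat1, an acyltransferase, averaged 5.04 CPM in control and 4.73 CPM in knockout, and the lipase gene Lipe 1.89 and 1.73 CPM. Of binding and transport genes, 6 of 13 were tested and 1 fell, Ttr, which encodes transthyretin, the plasma protein that carries RBP4 and thyroid hormone and is also made by islet cells. Ttr had 35.0, 32.0 and 26.1 CPM across the controls against 14.4, 14.8 and 14.8 CPM across the knockouts. All knockouts lay below every control, with a log2 difference of -1.08 (SE 0.14, adjusted p 0.0148, and 0.00158 with the block, by edgeR). The call was lost with library totals (adjusted p 0.0593 by edgeR) and in 4 of the 6 fits that left out 1 library, all but those without control replicate 1 or 3 (0.0529 to 0.0974). Summed islet markers in control replicates 1 to 3 were 479.97, 464.93 and 365.58 CPM and in knockout 941.59, 678.67 and 252.39 CPM, and their part in the Ttr difference was not tested.

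Of the receptors that are not members, Rxrb, the other widely expressed RXR gene, averaged 14.2 CPM in control and 13.7 CPM in knockout (log2 difference -0.05, SE 0.17). Rarb had at most 8 counts and Rxrg at most 2 in any library, and neither was tested. Rarb was named after its counts were seen, since it is a standard retinoic acid target. Among RXR partner receptors, 11 of 13 were tested and edgeR called 0, with 3 at an unadjusted p under 0.05 and 2 by DESeq2. Nr1h4, which encodes the bile acid receptor FXR, had 2.33, 5.79 and 5.67 CPM across the controls against 0.697, 1.34 and 0.617 CPM across the knockouts, with no overlap. Its log2 difference was -2.37 (SE 0.44, adjusted p 0.0535 by edgeR, and 0.00158 with the block). With sex as a covariate the Nr1h4 difference was -1.40 (adjusted p 0.332 by edgeR), and the only male control was the lowest of the controls. Nr1h3, which encodes the oxysterol receptor LXRα, had 4.63, 5.38 and 5.16 CPM across the controls against 2.28, 3.23 and 1.85 CPM across the knockouts, again with no overlap. Its log2 difference was -1.04 (SE 0.24, adjusted p 0.0792 by edgeR, and 0.0161 with the block). With sex as a covariate the Nr1h3 difference was -0.92 (adjusted p 0.383 by edgeR). The 2 genes called by DESeq2 were Nr1h4 and Nr1h3 (adjusted p 4.92e-05 and 0.01265).

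All 9 receptor coregulators were tested and edgeR called 0, with 1 at an unadjusted p under 0.05 and 0 by DESeq2. Ncor1, which encodes a corepressor of unliganded receptors, had a mean of 30.7 CPM ± 6.23 (SD, n = 3) across controls and 34.6 CPM ± 2.09 in knockout. Of 16 reported retinoic acid target genes, 6 were tested and edgeR called 0, with 1 at an unadjusted p under 0.05 and 0 by DESeq2. Tgm2, a transglutaminase gene, had 12.03, 8.67 and 8.51 CPM across the controls against 9.19, 5.17 and 5.42 CPM across the knockouts, with overlapping groups (log2 difference -0.56, SE 0.25, adjusted p 0.310 by edgeR, and 0.0443 with the block). Of 21 other short-chain dehydrogenases related to the members, 17 were tested and edgeR called 0, with 2 at an unadjusted p under 0.05 and 0 by DESeq2. Hsd17b13, a lipid droplet enzyme, had a mean of 101 CPM ± 38.4 (SD, n = 3) across controls and 94.3 CPM ± 27.2 in knockout. The mitochondrial Hsd17b10 averaged 22.9 and 21.8 CPM. No tested short-chain dehydrogenase of these lists was called higher by the main edgeR fit, DESeq2 or the block fit. Over all 13115 tested genes these called 61, 259 and 446 higher, so nothing is read from that absence. With library totals, 5 of the 62 other pathway genes were called higher, against 1442 of all tested genes.

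**Figure D4:**
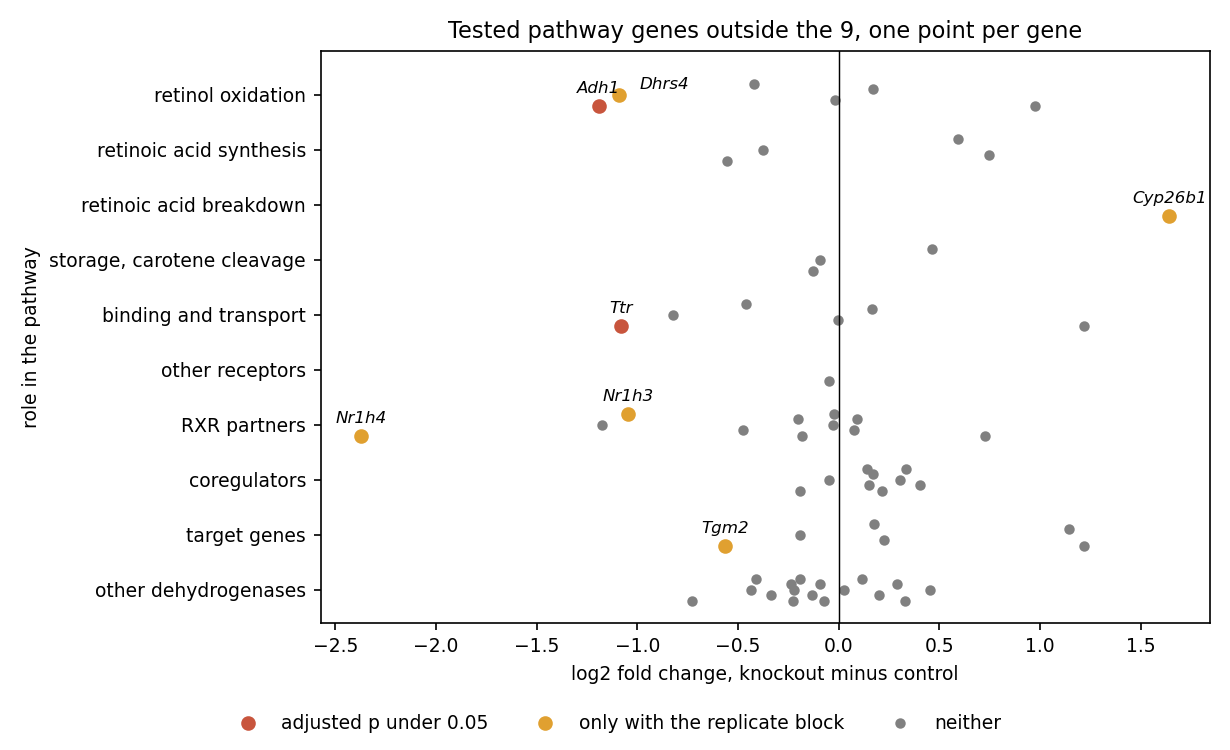
Log2 difference between knockout and control for the tested genes of each pathway list, 1 point per gene, with the genes called by edgeR in the fit with or without the replicate block marked and named. Adh1 at -1.19 and Ttr at -1.08 were called in both fits, and the median over the 62 genes is -0.04.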

How the data were processed

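RNA was sequenced from 3 control and 3 knockout preparations. The deposited files hold unnormalised read counts per gene, unstranded and per strand, and the submitters' processing notes name STAR 2.7.10a and the build GRCm39 (mm39). The unstranded counts were used. Rows outside genes were left out. They held 43.5%, 45.7% and 44.2% of reads across the controls against 36.9%, 41.1% and 38.9% across the knockouts. Reads that matched several places made up 25.98%, 28.38% and 27.26% across the controls against 21.63%, 24.13% and 22.45% across the knockouts. The part of these shares in any difference between the groups was not tested. Symbols, lengths and neighbours came from GENCODE M21 (GRCm38), in which 94.1% of identifiers were found; GRCm39 coordinates were not used here.

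Groups were compared with edgeR 4.0.16 in R 4.3.3 (filterByExpr, TMM, robust quasi-likelihood test, Benjamini-Hochberg adjustment, threshold 0.05), after a test on simulated data. Same-numbered libraries deviated together (correlations 0.63, 0.455 and 0.285, against -0.496 to 0.21 for other pairs). Deviations were taken from each group's mean, so these correlations are not independent of each other. A pairing by number is read from the data alone, since the labels do not give one. The main fit left the replicate number out, so its differences, standard errors and calls ignore such a pairing. A fit with the replicate number as a block is given where it changes a call. No 2 libraries agreed within sampling noise. Alternatives were library totals, relative log expression factors, digestive enzymes left out of library sizes, DESeq2 1.42.0, other low-count filters, strand-specific counts, sex as a covariate and leaving out each library. Transcripts were compared with blastn 2.17.0. Promoters are RefSeq windows.

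The members and lists were chosen with earlier results of these data known. Named genes are the 9 members, Trip12, in each list the genes called with or without the block or otherwise the 2 of highest mean CPM, and the 5 protein-coding genes of at least 1 CPM closest to Rdh11; 1 gene that the rule names is not reported here. The genes near Rdh11, Rarb and Rxrg were added after values were seen.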

Additional observations from a re-analysis of the deposited data

How the results depend on the processing

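Over all genes, 124 were called (61 higher, 63 lower). The count was 1519 with library totals (1442 higher, 77 lower), 593 with DESeq2 (259 and 334), 850 without the low-count filter (477 and 373), 210 with a minimum of 10 counts per library (110 and 100), 785 with the replicate block (446 and 339) and 21 with sex as a covariate. It was 20 (without control replicate 2) to 461 (without control replicate 1) when 1 library was left out, with 54, 27, 88 and 24 without control replicate 3 and knockout replicates 1, 2 and 3. Of the 9 members, 1 was called, Rdh11, against 124 of 13115 tested genes. With library totals 2 were called, Rdh11 and Rara, against 1519 of 13115. Leaving out a library gave 1 each time, Rdh11. The members were chosen on the Rdh11 difference, so nothing is read from these counts. Of the other pathway genes, 2 were called, against 7 with library totals (5 higher, 2 lower), 5 with DESeq2, 7 without the filter, 7 with the replicate block and 1 with sex as a covariate. Leaving out 1 library gave 0 to 4. It gave 4 without control replicate 1, 1 without control replicate 3, and 0 by edgeR without control replicate 2 or any one knockout, where 5, 8, 11 and 9 genes had an unadjusted p under 0.05. The cause was not tested. The sex covariate rests on 1 male control. Rbp4 and Rdh12 are limited by depth, and Rbp4 was not tested with forward-strand counts or under the minimum of 10 counts.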
